A study of Homo sapiens with 6 samples.

Results

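Small nucleolar RNA (snoRNA) host genes were followed in ACHN, an established human line of renal cancer cells, transfected with a control siRNA or an siRNA against OTUD1. The members were the rows whose symbol is SNHG with a number, together with GAS5, ZFAS1, DANCR, EPB41L4A-AS1, TMEM161B-AS1 and CCDC18-AS1, which gave 30 symbols among 58735 rows. Each group held 3 RNA-seq libraries, and both groups carry the same culture and transfection labels. OTUD1 encodes a deubiquitinase, and the labels name 1 siRNA against it (si01), so the comparison covers a single siRNA in a single cell line. The labels do not tell whether the 3 libraries of a group were separate cultures, so p-values cover the spread between these samples alone, and that spread may be technical.

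Most snoRNAs are made from the introns of other genes. A host gene is transcribed and spliced, and the excised intron is trimmed by exonucleases to a snoRNA wrapped in core proteins. C/D box snoRNAs (SNORD) guide 2'-O-methylation of ribosomal RNA and H/ACA box snoRNAs (SNORA) guide pseudouridylation. The spliced host RNA of several members, GAS5 among them, is known to be short-lived because nonsense-mediated decay removes it when it is translated, so its level need not follow that of its snoRNAs. Many host genes begin with a run of pyrimidines, the terminal oligopyrimidine start also found in ribosomal protein genes.

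The name of the group was checked against the annotation. At least 1 snoRNA or small Cajal body RNA lies inside 28 of the 30 members in GENCODE 29 or RefSeq. CCDC18-AS1 and SNHG27 hold none in either, and are kept here by their symbols. In TMEM161B-AS1 both annotations give only an snoRNA without a name of its own. GENCODE 29 places 138 snoRNA genes inside members, 102 with SNORD names and 23 with SNORA names, and 84 of the 138 lie in SNHG14. For GAS5 the RefSeq annotation gives 11: the C/D snoRNAs SNORD44, SNORD47 and SNORD74 to SNORD81, and the H/ACA snoRNA SNORA103.

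The first bases of the annotated transcripts show a sequence feature present in some transcripts of many members, a property that played no part in choosing them. A start counted as oligopyrimidine-like where the first base of a GENCODE 29 transcript was C and at least 4 more pyrimidines (C or T) followed, read on the transcribed strand only. Such a start was found in 34 of 295 member transcripts (11.5%), from 15 of the 30 members, and in 2.41% of all 206694 annotated transcripts. Counted by gene, 6.6% of 58721 genes have at least 1 such transcript. A gene with more annotated transcripts has more occasions to hold 1 such start, and the count by gene was not adjusted for this. SNHG1 held 1 in 25 transcripts, CCDC18-AS1 1 in 24 and SNHG11 1 in 15, whereas SNHG6 held 3 in 5. Transcripts of a gene often share their start and are not independent. For 10 members the first 30 bases of 1 transcript with such a start are shown (hg38), with the opening pyrimidine run in capitals. These transcripts were picked for that start. It was held by 6 of 29 transcripts of GAS5, 2 of 8 of SNHG16, 3 of 23 of SNHG5 and the only transcript of SNHG19. The transcripts shown of GAS5, SNHG16 and SNHG19 open with the same 6 bases, while the runs of SNHG4, SNHG12 and SNHG18 are longer.
GAS5 (chr1:173867960-173867989, minus strand): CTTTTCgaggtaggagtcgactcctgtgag
SNHG16 (chr17:76557769-76557798, plus strand): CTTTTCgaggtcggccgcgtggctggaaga
SNHG19 (chr16:2155329-2155358, minus strand): CTTTTCggggtcgagtccgagggggaagag
SNHG5 (chr6:85678704-85678733, minus strand): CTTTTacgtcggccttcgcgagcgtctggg
ZFAS1 (chr20:49278642-49278671, plus strand): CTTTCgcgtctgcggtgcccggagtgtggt
SNHG8 (chr4:118278758-118278787, plus strand): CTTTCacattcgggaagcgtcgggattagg
SNHG4 (chr5:139274102-139274131, plus strand): CCTTTCCCCTCCggcctctgccggtgctgc
SNHG12 (chr1:28581844-28581873, minus strand): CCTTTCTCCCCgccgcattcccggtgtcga
SNHG3 (chr1:28506043-28506072, plus strand): CCTTTTTggagacagattcgcagtggtcgc
SNHG18 (chr5:9546200-9546229, plus strand): CTCCTCCTCCTCCTCCTCCCCgccggggtg

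In the transcripts shown, the pyrimidine run was 5 or 6 bases in GAS5, SNHG16, SNHG19, SNHG5, ZFAS1 and SNHG8. It was 7 bases in SNHG3, 11 in SNHG12, 12 in SNHG4 and 21 in SNHG18, where it is a repeat of C and T.

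OTUD1 itself was 3.22-fold lower after its siRNA (log2 fold change -1.69, SE 0.235, edgeR quasi-likelihood adjusted p = 4.37e-07). Total counts ranged from 16753495 to 18993534 in the control libraries and from 17243433 to 21013530 in the OTUD1 siRNA libraries, and 15244 genes passed the filter on low counts. Levels are given as CPM, counts scaled by the TMM-adjusted library size, as mean ± SD of 3 libraries where a single value is printed. Of 6 leukocyte markers, 3 (PTPRC, CD3E and LYZ) had no count in any library, and the 6 together summed to 1.487 to 1.635 CPM in control and 1.241 to 1.889 CPM in OTUD1 siRNA libraries. The 6 fibroblast and endothelial markers summed to 3.469 to 5.606 and 5.114 to 6.564 CPM. The 6 renal epithelial markers were all detected and summed to 6297 to 6498 CPM in control and 3061 to 3176 CPM in OTUD1 siRNA libraries. The keratins KRT8 and KRT18 gave most of this sum (means of 4112 and 1604 CPM in control libraries). LHX1 and CDH16 were scarce in control libraries, at 1.98 and 0.586 CPM. All but CDH16 were lower after OTUD1 siRNA at an edgeR adjusted p under 0.05. The part of these markers in the results on host genes was not tested.

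Of the 30 members, 24 passed the filter on low counts. Of these, 11 rose and 4 fell after OTUD1 siRNA, and 9 did not pass the test (edgeR quasi-likelihood, Benjamini-Hochberg adjusted over all genes, threshold 0.05). Over all genes tested, 60.4% were called, 29.3% higher and 31.1% lower, against 45.8% higher and 16.7% lower among the tested members. Only CCDC18-AS1 rose by at least 1 on the log2 scale, as did 5.54% of all genes. The median log2 fold change of the members was 0.147, and that of all genes tested was 0.00557. With library totals in place of TMM scaling, which moved the median of all genes to 0.134, 16 members were called higher and 2 lower, beside 6189 and 3456 of all genes (4460 and 4746 with TMM). Without control siRNA replicate 3, the members called lower numbered 2 rather than 4. In bulk RNA, fewer cells expressing a gene and less of its RNA per cell cannot be told apart.

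**Figure D1:**
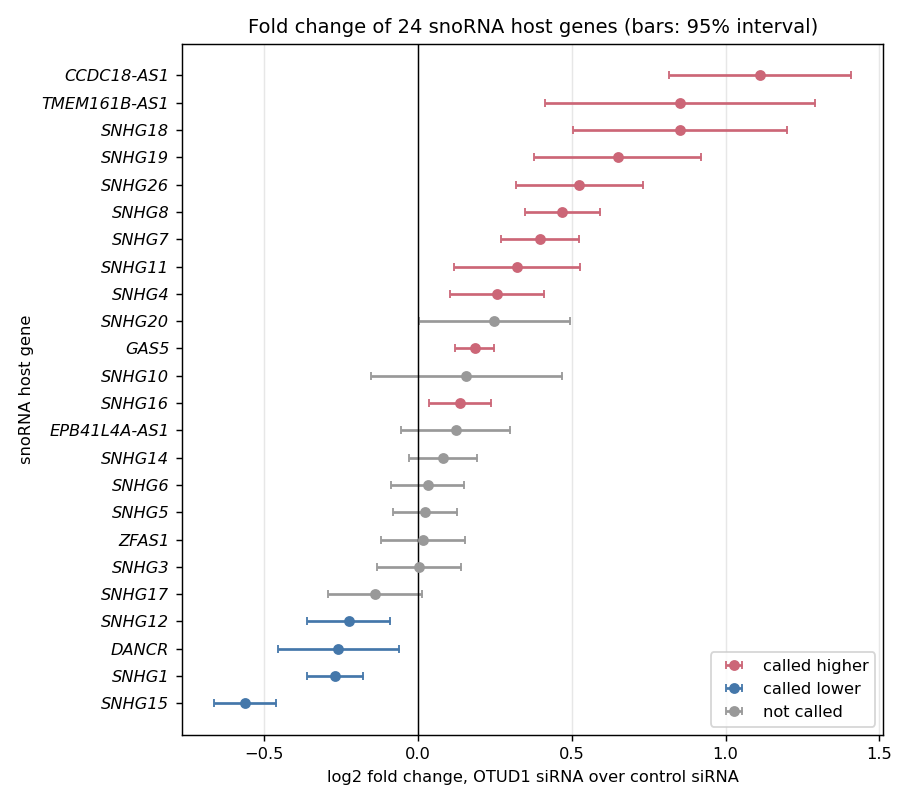
Log2 fold change (OTUD1 siRNA over control siRNA) of the 24 tested snoRNA host genes, ordered by size, with bars of the 95% interval. Colours mark the 11 members called higher, the 4 called lower and the 9 not called. CCDC18-AS1, kept by its symbol without an annotated snoRNA, stands highest at 1.11 and SNHG15 lowest at -0.56.

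The largest increase was that of CCDC18-AS1, an antisense transcript of the CCDC18 locus (ENSG00000223745.7, chromosome 1, 93262186 to 93346025, minus strand). It holds no annotated snoRNA, as stated above. Its control libraries were at 4.57, 3.8 and 3.68 CPM and its OTUD1 siRNA libraries at 7.16, 10.1 and 8.83 CPM. The groups did not overlap, with each OTUD1 siRNA library the higher, a pattern found in 11 tested members (EPB41L4A-AS1 but not SNHG16 among them) and in 31.5% of all genes tested. The increase was 2.16-fold (1.11 on the log2 scale, SE 0.151, edgeR adjusted p = 2.76e-07).

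TMEM161B-AS1, a divergent long non-coding transcript (ENSG00000247828.7, chromosome 5, 88268895 to 88436685, plus strand), was at 1.88, 1.87 and 1.46 CPM in control libraries and 3.1, 3.58 and 2.72 CPM in OTUD1 siRNA libraries. The groups did not overlap, and the increase was 1.81-fold (log2 fold change 0.85, SE 0.224, edgeR adjusted p = 0.0017). Its counts were low, 25 to 34 in a control library and 49 to 72 in an OTUD1 siRNA library. SNHG18, host of the C/D snoRNA SNORD123 (ENSG00000250786.1, chromosome 5, 9546200 to 9550609, plus strand), went from 3, 2.37 and 3.91 CPM to 5.01, 5.71 and 6.06 CPM. Its control libraries spread widely for their level, yet all lay below the OTUD1 siRNA libraries, and the increase was 1.8-fold (SE 0.178, edgeR adjusted p = 0.000147).

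SNHG19, a short gene that hosts SNORD60 (ENSG00000260260.1, chromosome 16, 2154797 to 2155358, minus strand), was at 5.07, 5.23 and 4.85 CPM in control and 7.02, 7.7 and 9.17 CPM in OTUD1 siRNA libraries, 1.57-fold higher (SE 0.138 on the log2 scale, edgeR adjusted p = 0.000189). SNHG26, host of SNORD93 (ENSG00000228649.8, chromosome 7, 22854178 to 22861579, plus strand), went from 9.95, 10.7 and 12.8 CPM to 17.3, 16.5 and 14.4 CPM, 1.44-fold higher (SE 0.105, adjusted p = 9.19e-05). In both genes the lowest OTUD1 siRNA library was above the highest control library.

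Among the better expressed members the increases were smaller and more tightly measured. SNHG8, which carries the H/ACA snoRNA SNORA24 (ENSG00000269893.6, chromosome 4, 118278709 to 118279823, plus strand), was at 33.9, 30.6 and 29.7 CPM in control libraries and 43.4, 43.6 and 43.2 CPM in OTUD1 siRNA libraries. Its OTUD1 siRNA libraries were nearly equal, and the increase was 1.38-fold (log2 fold change 0.47, SE 0.062, edgeR adjusted p = 1.67e-07). SNHG7, host of SNORA17A and SNORA17B (ENSG00000233016.6, chromosome 9, 136721366 to 136728184, minus strand), went from 55.4, 44.2 and 48.1 CPM to 61, 63.6 and 69.6 CPM, 1.32-fold higher (SE 0.0647, adjusted p = 5.21e-06), again with no overlap.

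SNHG11, host of SNORA60 and SNORA71E, and SNHG4, host of SNORA74A, rose 1.25-fold and 1.2-fold (edgeR adjusted p = 0.00971 and 0.00541), with no overlap between groups. SNHG11 lost its call without control siRNA replicate 1, its lowest library at 9.07 CPM (log2 fold change 0.227, adjusted p = 0.0757). SNHG4 kept its call in all 14 alternative settings, with an adjusted p between 8.75e-05 and 0.029.

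GAS5, the growth arrest-specific transcript that hosts a series of C/D snoRNAs (ENSG00000234741.7, chromosome 1, 173863900 to 173868882, minus strand), was the most abundant member. It was at 305.3, 310.6 and 300 CPM in control libraries and 335.1, 353.4 and 352.8 CPM in OTUD1 siRNA libraries. The groups did not overlap, and the increase of 1.14-fold (log2 fold change 0.18, SE 0.0321, edgeR adjusted p = 1.35e-05) is small beside those of the scarce members. Counts per library were 4879 to 5640 in control and 6350 to 7352 in OTUD1 siRNA libraries. GAS5 kept its call in all 14 alternative settings.

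SNHG16, host of SNORD1A, SNORD1B and SNORD1C (ENSG00000163597.14, chromosome 17, 76557766 to 76565348, plus strand), was at 161.8, 163.7 and 158.2 CPM in control libraries and 154.3, 190.3 and 188.1 CPM in OTUD1 siRNA libraries. OTUD1 siRNA replicate 1 lay below all control libraries while the other two lay above them. The log2 fold change of 0.14 passed the test (SE 0.0515, edgeR adjusted p = 0.0226). The call was lost without OTUD1 siRNA replicate 2 (0.0831), without OTUD1 siRNA replicate 3 (0.0952), without control siRNA replicate 3 (0.126) and with DESeq2 (0.145), with adjusted p of 0.216, 0.135, 0.0761 and 0.189 in that order.

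**Figure D2:**
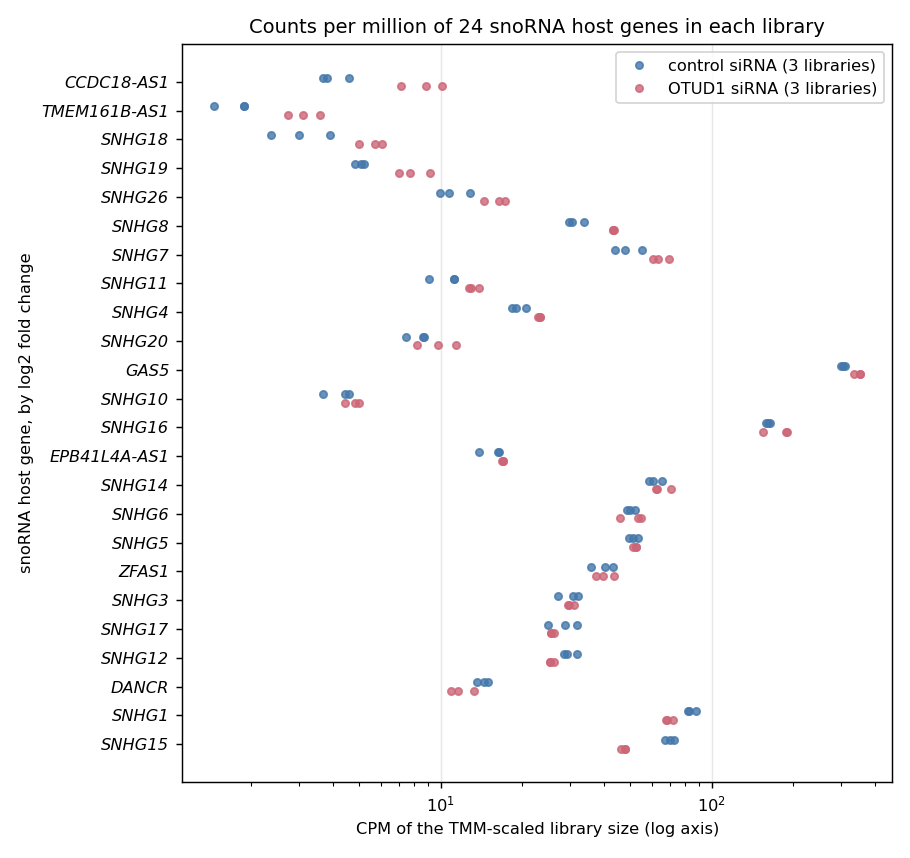
CPM of the TMM-scaled library size (log axis) of the 24 tested snoRNA host genes in each of the 3 control siRNA and 3 OTUD1 siRNA libraries, 1 point per library. The groups separate upwards for CCDC18-AS1, SNHG8 and GAS5 and downwards for SNHG15 and SNHG1, whereas 1 OTUD1 siRNA library of SNHG16 lies below its control libraries and 2 lie above them.

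The decreases came from 4 members. SNHG15, host of SNORA9 and a transcript known for its short half-life (ENSG00000232956.8, chromosome 7, 44983023 to 44986961, minus strand), fell the most, from 72.9, 69.9 and 67.1 CPM to 47.8, 48 and 46.3 CPM. Each OTUD1 siRNA library lay below each control library, as in 4 tested members and in 33% of all genes tested. The decrease was 1.48-fold (log2 fold change -0.56, SE 0.0514, edgeR adjusted p = 1.36e-10). SNHG1, host of the C/D snoRNAs SNORD22 and SNORD25 to SNORD31 (ENSG00000255717.6, chromosome 11, 62851988 to 62855914, minus strand), went from 87.3, 82.7 and 81.8 CPM to 68.1, 72 and 68.7 CPM. It fell 1.21-fold with no overlap (log2 fold change -0.27, SE 0.0467, edgeR adjusted p = 1.28e-05).

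SNHG12, which hosts SNORD99 and the H/ACA snoRNAs SNORA16A, SNORA44 and SNORA61 (ENSG00000197989.14, chromosome 1, 28578538 to 28583132, minus strand), was at 28.5, 29.3 and 31.8 CPM in control and 25.4, 25.2 and 26.2 CPM in OTUD1 siRNA libraries. It fell 1.17-fold (SE 0.069 on the log2 scale, edgeR adjusted p = 0.00612). The call was lost without control siRNA replicate 3, its highest library (log2 fold change -0.175, adjusted p = 0.0549), and with library totals (-0.0958, adjusted p = 0.231).

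DANCR, host of SNORA26 and named for its action against differentiation (ENSG00000226950.6, chromosome 4, 52712404 to 52720351, plus strand), was at 14.5, 13.6 and 14.9 CPM in control and 11.6, 13.3 and 10.9 CPM in OTUD1 siRNA libraries. The groups did not overlap, but OTUD1 siRNA replicate 2 came close to control replicate 2. The decrease of 1.2-fold passed the test (edgeR adjusted p = 0.027, log2 fold change -0.26 with an SE of 0.1). The call was lost in 7 of 14 alternative settings. The log2 fold change was -0.255 without control replicate 1, -0.228 without control replicate 3, -0.235 without OTUD1 siRNA replicate 1 and -0.203 without OTUD1 siRNA replicate 3. It was -0.254 with DESeq2, -0.21 where genes needed a mean of 5 CPM, and -0.13 with library totals.

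The 9 tested members that did not pass ranged in log2 fold change from -0.14 (SNHG17) to 0.25 (SNHG20). ZFAS1, host of SNORD12, SNORD12B and SNORD12C, was at 40.5, 35.7 and 43.3 CPM in control and 37.4, 43.7 and 39.8 CPM in OTUD1 siRNA libraries, with full overlap. Its 95% interval on the log2 scale ran from -0.119 to 0.152. SNHG5, host of SNORD50B, was at 53.4, 51.2 and 49.3 CPM in control and 51.3, 52.6 and 52.4 CPM in OTUD1 siRNA libraries (interval -0.0818 to 0.126). SNHG6, host of SNORD87, was at 52.1, 48.7 and 50 CPM in control and 53.3, 54.7 and 45.9 CPM in OTUD1 siRNA libraries (interval -0.0866 to 0.151). The groups overlapped in both genes. A change as large as that of SNHG8 lies outside all 3 of these intervals.

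SNHG3, host of SNORA73A and SNORA73B, stood at 30 ± 2.56 CPM in control and 30.1 ± 0.847 CPM in OTUD1 siRNA libraries (interval -0.133 to 0.139). SNHG14, the long transcript that spans the imprinted SNORD115 and SNORD116 clusters, was at 58.6, 65.9 and 61 CPM in control and 62.2, 71.1 and 62.9 CPM in OTUD1 siRNA libraries (log2 fold change 0.08, edgeR adjusted p = 0.227). It was called higher with library totals (0.209), quantile normalization (0.171) and where genes needed a mean of 5 CPM (0.129). EPB41L4A-AS1, host of SNORA13, was higher in all 3 OTUD1 siRNA libraries (17, 16.8 and 17.1 CPM) than in the control libraries (16.3, 16.5 and 13.9 CPM), without passing the test (0.12, adjusted p = 0.247).

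The scaRNA hosts SNHG10 and SNHG20 did not pass either, with wide intervals of -0.154 to 0.468 and 0.00287 to 0.494. The interval of SNHG20 lies above 0 although its unadjusted edgeR quasi-likelihood p was 0.0573, as these intervals are slightly narrow. SNHG20 was called without OTUD1 siRNA replicate 2 (log2 fold change 0.363, adjusted p = 0.0194), with library totals (0.378) and where genes needed a mean of 5 CPM (0.297). Library totals also brought calls for SNHG5 (0.151), SNHG6 (0.161) and EPB41L4A-AS1 (0.251). SNHG17, host of the SNORA71 genes, had a log2 fold change of -0.14 (adjusted p = 0.12) and was called lower without control siRNA replicate 2 (-0.23, adjusted p = 0.0116).

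The other 6 members had too few counts to be tested. SNHG9 had 7, 7 and 3 counts in control and 10, 9 and 5 in OTUD1 siRNA libraries, and SNHG21 had 7, 12 and 5 against 8, 15 and 9. SNHG25 had 3, 2 and 3 against 11, 9 and 4, and SNHG22 at most 2 in any library. The symbol SNHG28 stands on 2 rows, of which 1 had no count and the other 0, 5 and 4 against 4, 10 and 9. SNHG27 had no count in any library. At these depths a count of 3 corresponds to 0.137 to 0.188 CPM, and SNHG27 could be present below that level. The limit covers counting error only.

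Levels between members were compared per kilobase of annotated exon. In control libraries GAS5 led with 84.1 ± 1.45 CPM per kilobase, followed by SNHG6 (40.3 ± 1.39), SNHG8 (34 ± 2.38), SNHG16 (30.1 ± 0.513) and SNHG1 (22.3 ± 0.79), and the control libraries of each of these neighbours did not overlap. SNHG15, SNHG5 and ZFAS1, at 19.2, 18.3 and 17.8 CPM per kilobase, overlapped in that order. SNHG19 came next at 14.8 and SNHG7 at 11.3. SNHG3, SNHG12, SNHG17 and DANCR lay between 7.35 and 6.27, and each overlapped the next in that order. TMEM161B-AS1 was last of the 24 at 0.391. The exon length is that of all annotated transcripts merged, 43324 bases for SNHG14, so genes with rarely used exons are placed low.

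The members together made up 1086 to 1102 CPM in control and 1116 to 1199 CPM in OTUD1 siRNA libraries. GAS5 gave 27.6% to 28.6% of that sum in control and 29.5% to 30% in OTUD1 siRNA libraries, and SNHG16 gave 13.8% to 16% over all libraries. Without GAS5 the sums were 775.3 to 796.3 CPM and 781 to 845.7 CPM, which overlap.

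Grouped by level, the scarcer members had the higher median fold change. Of the 14 tested members with a mean over 20 CPM, 5 rose and 3 fell, with a median log2 fold change of 0.0272. Of the 7 at 5 to 20 CPM, 4 rose and 1 fell (median 0.322), and of the 3 under 5 CPM, 2 rose (median 0.852). Over all genes tested the medians had the same order, -0.0704 over 20 CPM, 0.0453 at 5 to 20 CPM and 0.234 under 5 CPM. Of all genes, 29.2% rose and 44.3% fell over 20 CPM, 32.6% and 26.3% at 5 to 20 CPM, and 26.8% and 10.5% under 5 CPM.

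Other long non-coding genes gave a further reference. Of the 1446 tested that are not members, 39.3% were called higher and 6.92% lower, with a median log2 fold change of 0.452. Over 20 CPM, 56.8% of 37 rose and 13.5% fell (median 0.176), against 35.7% and 21.4% of members. At 5 to 20 CPM, 62.2% of 188 rose and 9.57% fell (median 0.461), against 57.1% and 14.3% of members. Under 5 CPM, 35.3% of 1221 rose and 6.31% fell (median 0.46), beside 2 of 3 members. The difference between the lists was not tested. The part of the level in these differences was not tested.

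**Figure D3:**
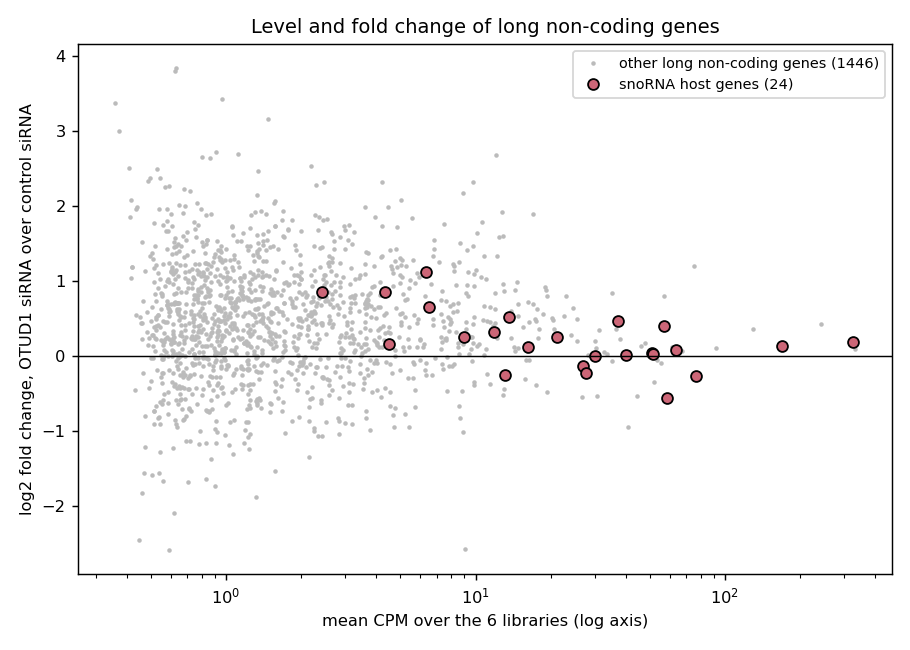
Mean CPM over the 6 libraries (log axis) and log2 fold change of the 24 tested snoRNA host genes (large points) and of 1446 other tested long non-coding genes (small points). The 4 members with the largest increases lie under 10 CPM, and the other genes centre above 0, with a median of 0.452.

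Hosts of C/D and of H/ACA snoRNAs were found among both the increases and the decreases. Of 9 tested members with named C/D snoRNAs alone, SNHG16, SNHG18, SNHG19 and SNHG26 rose and SNHG1 fell. Of 9 with H/ACA snoRNAs alone, SNHG4, SNHG7, SNHG8 and SNHG11 rose, and SNHG15 and DANCR fell. GAS5 and SNHG12, which hold both kinds, went in opposite directions. The medians were 0.08 for C/D hosts and 0.122 for H/ACA hosts. The difference between the kinds was not tested.

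The oligopyrimidine-like starts shown above did not mark 1 direction. Of the 14 tested members with such a transcript, 8 rose, 2 fell and 4 did not pass, with log2 fold changes from -0.269 to 1.113 and a median of 0.161. Of the 10 without one, 3 rose, 2 fell and 5 did not pass (median 0.14). SNHG16 and SNHG19, whose transcripts shown above share their first 6 bases with that of GAS5, had log2 fold changes of 0.14 and 0.65. Which start is used in ACHN cells was not measured.

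Several members share a locus with a protein-coding gene. The start of a gene is taken here as its outermost annotated one. Of 9 tested genes on the opposite strand whose start lies within 1000 bases of that of a member, 5 fell and 1 rose. These are 55.6% and 11.1%, beside 31.1% and 29.3% of all genes tested. Their median log2 fold change was -0.0774, and with library totals 3 fell and 4 rose. SNHG1 and SLC3A2, the heavy chain of amino acid transporters, are divided by 188 bases between their starts on opposite strands. Both fell, SLC3A2 by 1.53-fold from 656 ± 27.8 to 428 ± 9.85 CPM (SE 0.0318 on the log2 scale, edgeR adjusted p = 4.56e-16). SNHG18 rose while SEMA5A, a semaphorin whose start lies 125 bases away, fell 2.21-fold from 17.7 ± 1.5 to 8.03 ± 0.46 CPM (adjusted p = 8.99e-11). GAS5 rose 1.14-fold while ZBTB37, a zinc finger gene on the other strand, fell 1.89-fold from 9.52 ± 1.45 to 5.05 ± 0.157 CPM (adjusted p = 8.97e-07). ZBTB37 begins at 173868082, inside the annotated GAS5 span and 800 bases from its outermost start. The GAS5 transcript shown above begins closer, at 173867989, and does not hold the ZBTB37 start. No exon of ZBTB37 overlaps one of GAS5.

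DR1, a repressor of transcription whose start lies 137 bases from that of CCDC18-AS1, fell 1.12-fold, and CCDC18 itself fell from 5.63 ± 0.13 to 3.78 ± 0.0528 CPM (log2 fold change -0.58, edgeR adjusted p = 0.00166). TMEM161B rose 1.16-fold beside the 1.81-fold increase of TMEM161B-AS1, but its groups overlapped and the call was lost without control siRNA replicate 1 (0.134), without OTUD1 siRNA replicate 2 (0.138) and with DESeq2 (0.218). TRAF7 beside SNHG19 and ZNFX1 beside ZFAS1 did not pass (log2 fold changes 0.02 and 0.04).

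On the same strand, SNHG3 shares 242 exonic bases with RCC1, the nucleotide exchange factor of the GTPase RAN. RCC1 fell 2.4-fold, from 95.6, 83.1 and 86 CPM to 35.9, 36.7 and 37.7 CPM (SE 0.0557 on the log2 scale, edgeR adjusted p = 1.19e-17), while SNHG3 had a log2 fold change of 0.00279. SNHG20 shares 460 exonic bases with SEC14L1, which fell 1.32-fold (adjusted p = 1.37e-09). SNHG4, called higher above, shares 626 exonic bases, 14% of its own, with MATR3. The symbol MATR3 does not stand for a single row, so no value is given for it. The part of such shared bases in the values of these members was not tested. The sources used here do not give how reads of shared exons were assigned.

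The library kit marks strand, but the strand setting of the counting is not given, so counts of members that overlap a gene on the other strand are uncertain. The overlap is largest for EPB41L4A-AS1, with 49.6% of its exonic bases opposite exons of EPB41L4A, which fell from 18.4 ± 1.34 to 12.6 ± 0.235 CPM (log2 fold change -0.55, edgeR adjusted p = 6.46e-06). For SNHG7, 25.2% of exonic bases face FAM69B, which rose by 0.34 (adjusted p = 0.00126), close to the 0.40 of SNHG7. For SNHG10, 20.1% face GLRX5, which fell by 0.53 (adjusted p = 2.22e-08). For SNHG16 and SNHG6, 30.6% and 29.3% face AC015802.6, at 0 to 9 counts a library, and MCMDC2, at 11 to 37 counts. The part of overlapping reads in the values of these members was not tested.

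**Figure D4:**
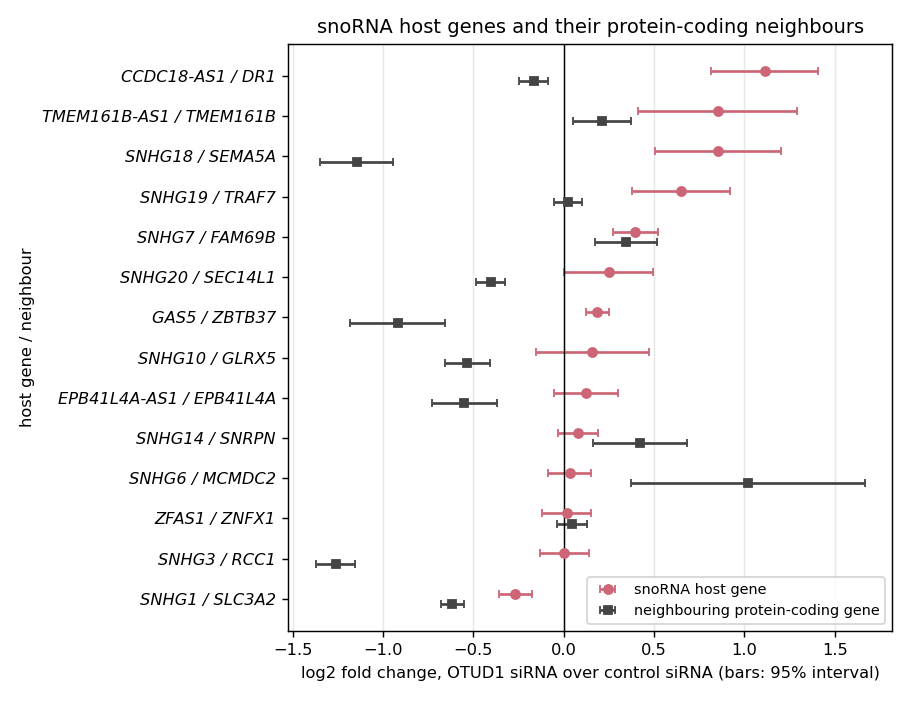
Log2 fold change (OTUD1 siRNA over control siRNA, bars of the 95% interval) of 14 snoRNA host genes (circles) and of a protein-coding neighbour with a nearby start or overlapping exons (squares). SEMA5A, RCC1 and ZBTB37 fell while SNHG18 and GAS5 rose and SNHG3 did not pass; SNHG1 and SLC3A2 both fell.

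Few counts were assigned to the snoRNAs that GENCODE 29 places inside members and whose symbol stands on 1 row. Of 129 such rows, 96 had no count in any library, and all together summed to 86 to 109 counts per library. The snoRNAs of GAS5 are not among these rows, since GENCODE 29 places none inside it. SNORD29, SNORD31 and SNORD50A are likewise not among them, and SNORA16A and SNORA17B stand on 2 rows each and were left out. A few rows, such as RF00099, carry no SNORD, SNORA or SCARNA name. Many of the rows without a count belong to SNHG14, among them every SNORD115 copy and part of the SNORD116 copies. Only SNORD104, SNORA73B and SNORA71C had enough counts to be tested. SNORD104, a C/D snoRNA inside SNHG25, had 38, 22 and 24 counts in control and 19, 17 and 15 in OTUD1 siRNA libraries, and passed as lower (log2 fold change -0.95, SE 0.328, edgeR adjusted p = 0.0134). SNORA73B had 15, 11 and 20 against 7, 8 and 14, and SNORA71C 14, 7 and 3 against 13, 17 and 12, and neither passed (adjusted p = 0.0779 and 0.308). Every one of these rows with bases in a host exon, SNORD22 and SNORA73A among them, had no count in any library. All rows that had counts lie outside the exons of their host, as do other rows without a count. The part of the rule for reads that fall in host exons was not tested. For rows outside host exons, low expression and poor capture of such short RNAs cannot be told apart here. The host levels above say nothing of snoRNA levels.

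The genes of proteins that bind and release snoRNAs fell more often than they rose. Most of them lie over 20 CPM, where 44.3% of all genes fell and 29.2% rose. The part of the level in these counts was not tested. Of the 8 snoRNP core protein genes tested, 5 fell and 1 rose, against 31.1% and 29.3% of all genes, with a median log2 fold change of -0.156. NOP56 and NOP58, scaffold proteins of C/D particles, fell 1.39-fold and 1.26-fold (edgeR adjusted p = 1.22e-12 and 2.01e-08), and GAR1, of H/ACA particles, fell 1.32-fold. The pseudouridine synthase DKC1 fell 1.16-fold and SNU13 1.07-fold, while NOP10 rose 1.26-fold. The methyltransferase FBL and NHP2 did not pass, with 95% intervals of -0.105 to 0.0367 and -0.12 to 0.0812. With library totals 3 fell and 2 rose, and with quantile normalization 4 and 2.

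Of 15 snoRNP assembly factors, 10 fell and 1 rose (66.7% and 6.67%, median -0.27), or 7 and 2 with library totals. ZNHIT6, an assembly factor of C/D particles, fell 1.52-fold from 70.3 ± 1.02 to 46.1 ± 1.07 CPM, and the chaperones HSP90AA1 and HSP90AB1, which serve many clients, fell 1.46-fold and 1.25-fold. NOLC1, a nucleolar phosphoprotein that binds snoRNPs, went the other way, from 128 ± 3.58 to 258 ± 1.01 CPM (2.02-fold higher, SE 0.0354 on the log2 scale, edgeR adjusted p = 4.99e-20). Of 17 factors of debranching and RNA trimming, 9 fell and 1 rose (52.9% and 5.88%, median -0.183). With library totals 6 fell and 3 rose, and with quantile normalization 8 and 3. Among these factors were the exonuclease XRN2 1.2-fold and the exosome subunits EXOSC2 and EXOSC9 1.32-fold and 1.31-fold lower, and EXOSC6 1.15-fold higher.

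Nonsense-mediated decay factors were divided, with 7 of 19 lower and 4 higher (36.8% and 21.1%, median -0.102), beside 31.1% and 29.3% of all genes. With library totals 3 fell and 6 rose (median 0.0267), and with quantile normalization 4 and 6. UPF2 fell 1.41-fold, the kinase SMG1 1.34-fold and SMG5 1.17-fold. PNRC2 and CASC3 both rose 1.28-fold, and the release factor ETF1 rose 1.17-fold.

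Protein-coding genes that hold snoRNAs are the counterpart of the members. Of 229 tested with a GENCODE 29 snoRNA inside them on the same strand, 107 fell and 43 rose, 46.7% and 18.8%, with a median log2 fold change of -0.11 that became 0.0195 with library totals (81 fell and 79 rose). With quantile normalization 89 fell and 74 rose. The decreases with the smallest adjusted p included AMMECR1 (4.95-fold lower), the aldehyde dehydrogenase ALDH3A2 (2.06-fold) and the import receptor IPO7 (1.79-fold), while EEF2, RAB3GAP1 and the HSP90 activator AHSA1 rose 1.25-fold, 1.39-fold and 1.27-fold. Members are thus called higher in 45.8% and these genes in 18.8%, a difference that was not tested. Other long non-coding genes were called higher in 39.3%. Over 20 CPM, 35.7% of members rose, and of all genes 29.2% rose and 44.3% fell. The parts of level and gene class in the difference were not tested.

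A further list of 33 snoRNA hosts with a role in translation was set by hand and not matched to this annotation. Of these, 5 rose and 11 fell (15.2% and 33.3%, median -0.0331). NOP56 and DKC1, both lower, are counted here and among the core proteins. The direction of this list turned with the scaling, with 23 higher and 5 lower after quantile normalization (median 0.19) and 21 and 6 with library totals (0.0959). Nucleolin (NCL) fell 1.4-fold and the initiation factor EIF4G2 1.35-fold. The elongation factor EEF2 rose from 2829 ± 35.4 to 3523 ± 18.6 CPM (edgeR adjusted p = 5.99e-13), and RPL13 and RPL13A rose 1.11-fold and 1.08-fold.

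**Figure D5:**
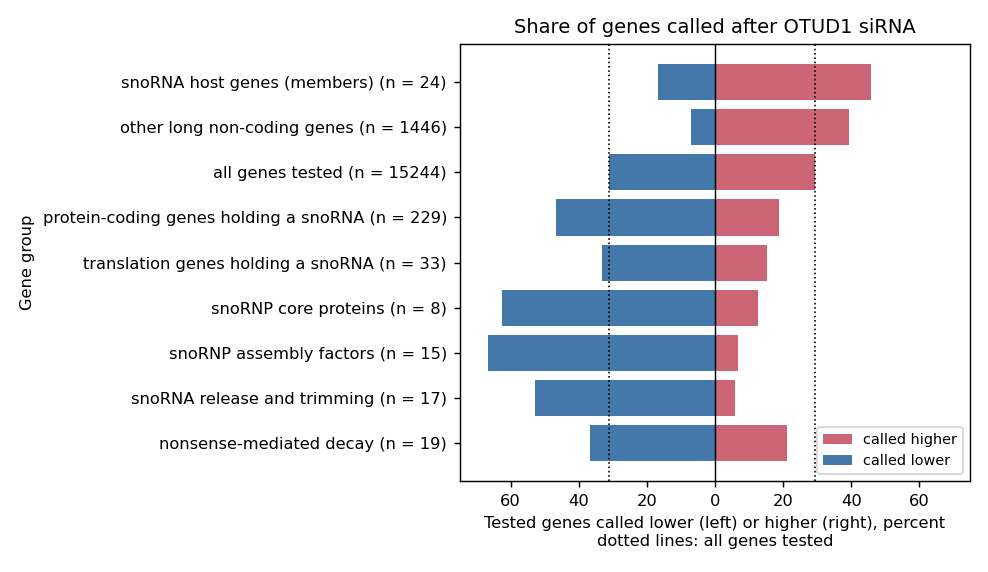
Percent of tested genes called higher (right) or lower (left) after OTUD1 siRNA, for the snoRNA host genes and the groups they are compared with, with the number tested beside each name and dotted lines at the 29.3% and 31.1% of all genes tested. The host genes and other long non-coding genes reach further right, and snoRNP core and assembly proteins further left.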

How the data were processed

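RNA was measured by RNA-seq in 6 libraries of ACHN cells, 3 per group. Trizol RNA went into NEBNext Ultra Directional libraries, which keep strand, per the labels' protocols. Genome build hg38 is named in the submitters' processing notes. Aligner, counter, strand setting and annotation: not given in the sources used here. The deposited values are whole-number counts per gene symbol, although the file is named for FPKM, and were treated as raw counts. Of 58735 rows, 30560 had no count.

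Counts were filtered with filterByExpr (minimum 10 counts, 15 in total), scaled by TMM and tested with glmQLFit and glmQLFTest in edgeR 4.0.16 (R 4.3.3), two-sided, with Benjamini-Hochberg adjustment over 15244 genes. Each SE was derived from the F statistic of the log2 fold change. The 95% intervals used that SE with a normal multiplier of 1.96, so they are somewhat narrower than the test itself would give. The fit was checked on simulated counts in which few genes changed, evenly in both directions. Such a check does not cover the scaling where, as here, 60.4% of genes are called. Loci, exon lengths, overlaps and transcript starts came from GENCODE 29 (hg38), and further snoRNA names from RefSeq. Alternatives used limma 3.58.1 and DESeq2 1.42.0.

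No libraries of a group agreed within sampling noise (chi-square per gene of 2.05 to 3.72 on average), so none was treated as deposited more than once. This does not show that they were separate cultures. Every member could be named, with values per library for the 8 most abundant tested members and for up to 7 called in each direction. Up to 3 called genes per direction were named from each other list. Neighbours of members, the other core proteins and further values per library (such as those of EPB41L4A-AS1) were added after their values were seen. Members and lists were chosen with earlier results of these data known.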

Additional observations from a re-analysis of the deposited data

How the results depend on the processing

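Settings tried were the filter, the scaling, the tool, the replicate number as a block and each library left out in turn. With library totals, 2 members were called lower (4 with TMM) and their median log2 fold change was 0.276 (0.147 with TMM). Library totals also moved the counts of core proteins (2 higher, 3 lower), assembly factors (2 higher), decay factors (3 lower), translation hosts (21 higher, 6 lower), release factors (3 higher), annotated protein-coding hosts (79 higher) and genes with starts within 1000 bases of a member (4 higher, 3 lower; 1 and 5 with TMM). Quantile normalization gave 2 core proteins higher, 4 decay factors lower, 23 translation hosts higher and 5 lower, 3 release factors higher, 74 annotated hosts higher, and 5 adjoining genes higher and 3 lower. A minimum mean of 5 CPM gave 14 translation hosts, 3 release factors and 2 adjoining genes higher, DESeq-type size factors 2 release factors higher, and DESeq2 0 adjoining genes higher, against 1 with edgeR. The cause of these moves was not tested.

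Leaving out 1 library in turn, members called lower numbered 2 (without control siRNA replicate 3) to 5, and translation hosts called higher 3 (without OTUD1 siRNA replicate 2) to 6. Release factors called higher numbered 1 to 2 (without control siRNA replicate 2 or OTUD1 siRNA replicate 3), and adjoining genes called higher 0 (without OTUD1 siRNA replicate 2) to 2 (without OTUD1 siRNA replicate 3). Members called higher numbered 10 to 11.

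Among members that were not called, the log2 fold change of SNHG3 changed sign without a filter (-0.00631). With 1 library left out, the log2 fold change crossed 0 for SNHG3 (-0.0654 to 0.0524), SNHG5 (-0.00362 to 0.0481), SNHG6 (-0.0154 to 0.103) and ZFAS1 (-0.0567 to 0.0832).

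Libraries share replicate numbers, but same-numbered libraries deviated together only for number 2 (correlations 0.0225, 0.134 and -0.00064), so the numbers were not taken to pair them. With the replicate block, 11 members were called higher and 4 lower, the same counts as without it, and 4484 and 4791 of all genes.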
